A study of Homo sapiens with 12 samples.

Results

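Succinate dehydrogenase, complex II of the respiratory chain, is the only enzyme shared by the tricarboxylic acid (TCA) cycle and electron transport. The flavoprotein SDHA oxidises succinate, the iron-sulfur protein SDHB passes the electrons on, and SDHC and SDHD anchor both in the inner mitochondrial membrane where ubiquinone is reduced. Dedicated assembly factors mature the catalytic subunits: SDHAF2 and SDHAF4 act on SDHA, and SDHAF1 and SDHAF3 on SDHB. All of these genes are encoded in the nucleus, and PGC-1α is a coactivator of nuclear genes for mitochondrial proteins, so their mRNAs are read here in cells that carry PGC-1α with or without its RS domain.

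The 4 subunit genes and the 4 assembly factor genes were taken by symbol, which gave 8 of 61860 genes and 59 of 251121 transcripts in the deposited counts. The 12 libraries come from HEK293 cells, an established human embryonic kidney line, in its Flp-In T-REx form, which carries a doxycycline-inducible insert. In both lines the insert encodes miRNAs against endogenous PGC-1α and a resistant, tagged copy of PGC-1α that is complete in the line called WT-res and lacks the RS domain in the line called ΔRS-res, and every culture, those of the WT-res control included, received 1 µg/ml doxycycline for 6 days. Each line is the progeny of an individual colony, so clone and construct cannot be told apart. RNA was taken from whole cells or from cytoplasm, with 3 replicates per line and fraction from consecutive passages, so that p-values measure the spread between passages of 1 clone per line.

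The libraries held between 90333190 and 144628005 expected counts, of which the 8 genes took from 0.0398% to 0.0771%, and no member fell below 755 counts in a library. Of the 8 HEK293 markers, VIM lay between 760 and 1056 CPM (counts scaled to library size) and NEFL between 183 and 372 CPM. KRT8 lay between 88.6 and 181, KRT18 between 69.2 and 109 and INA between 51.3 and 92.5 CPM. The rest were low, PAX2 between 2.79 and 5.81 CPM and LHX1 between 1.64 and 4.01 CPM, and NEFM did not exceed 0.694 CPM. Among markers of other cell types, PTPRC, CD3E, ALB, PECAM1, MYH7 and INS stayed at or below 0.125 CPM, and COL1A1 lay between 2.98 and 6.64 CPM. Between the lines, KRT8 was the 1 of 8 HEK293 markers called in cytoplasm with 6 libraries (0.53 on the log2 scale), beside 1.53% of all genes. Of the 7 markers of other cell types 4 were tested there, and none was called. In the 4 cytoplasmic libraries that entered the study's tests, 3 HEK293 markers were higher and 1 was lower. Of the other markers 1 was lower, in a fit that called 22.1% of genes. PPARGC1A, the gene of PGC-1α, was counted from endogenous and introduced copies alike. It lay between 552 and 682 CPM in WT-res and between 296 and 397 CPM in ΔRS-res cytoplasm, with no overlap. In whole cells it lay at 647 and 662 CPM in WT-res replicates 1 and 2, at 487 CPM in the whole-cell library labelled WT-res 3 and between 342 and 486 CPM in ΔRS-res. The whole-cell library labelled WT-res 3 went against its label. DDX19B, an RNA helicase gene, was at 0.195 CPM there, against 12.1 and 12.7 CPM in WT-res whole-cell replicates 1 and 2 and 0.219 to 0.257 CPM in the ΔRS-res whole-cell libraries. Whole-cell results are therefore given with and without that library, which stayed under its label.

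SDHA was the member that separated the lines. In whole cells it stood at 70.0 and 68.0 CPM in WT-res replicates 1 and 2 and at 327.6 CPM in the whole-cell library labelled WT-res 3, while the ΔRS-res libraries stood at 333, 330 and 382 CPM. In cytoplasm the 3 WT-res libraries stood at 75.9, 72.2 and 77.2 CPM and the 3 ΔRS-res libraries at 326, 327 and 370 CPM. The groups did not overlap in cytoplasm. In whole cells only 327.6 against 330 CPM kept them apart, as the whole-cell library labelled WT-res 3 lay beside the ΔRS-res libraries rather than beside WT-res. The share of all genes whose groups lie apart in this way was not counted. In RNA from bulk cultures, a higher level in every cell and a larger share of cells with a high level cannot be told apart.

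**Figure D1:**
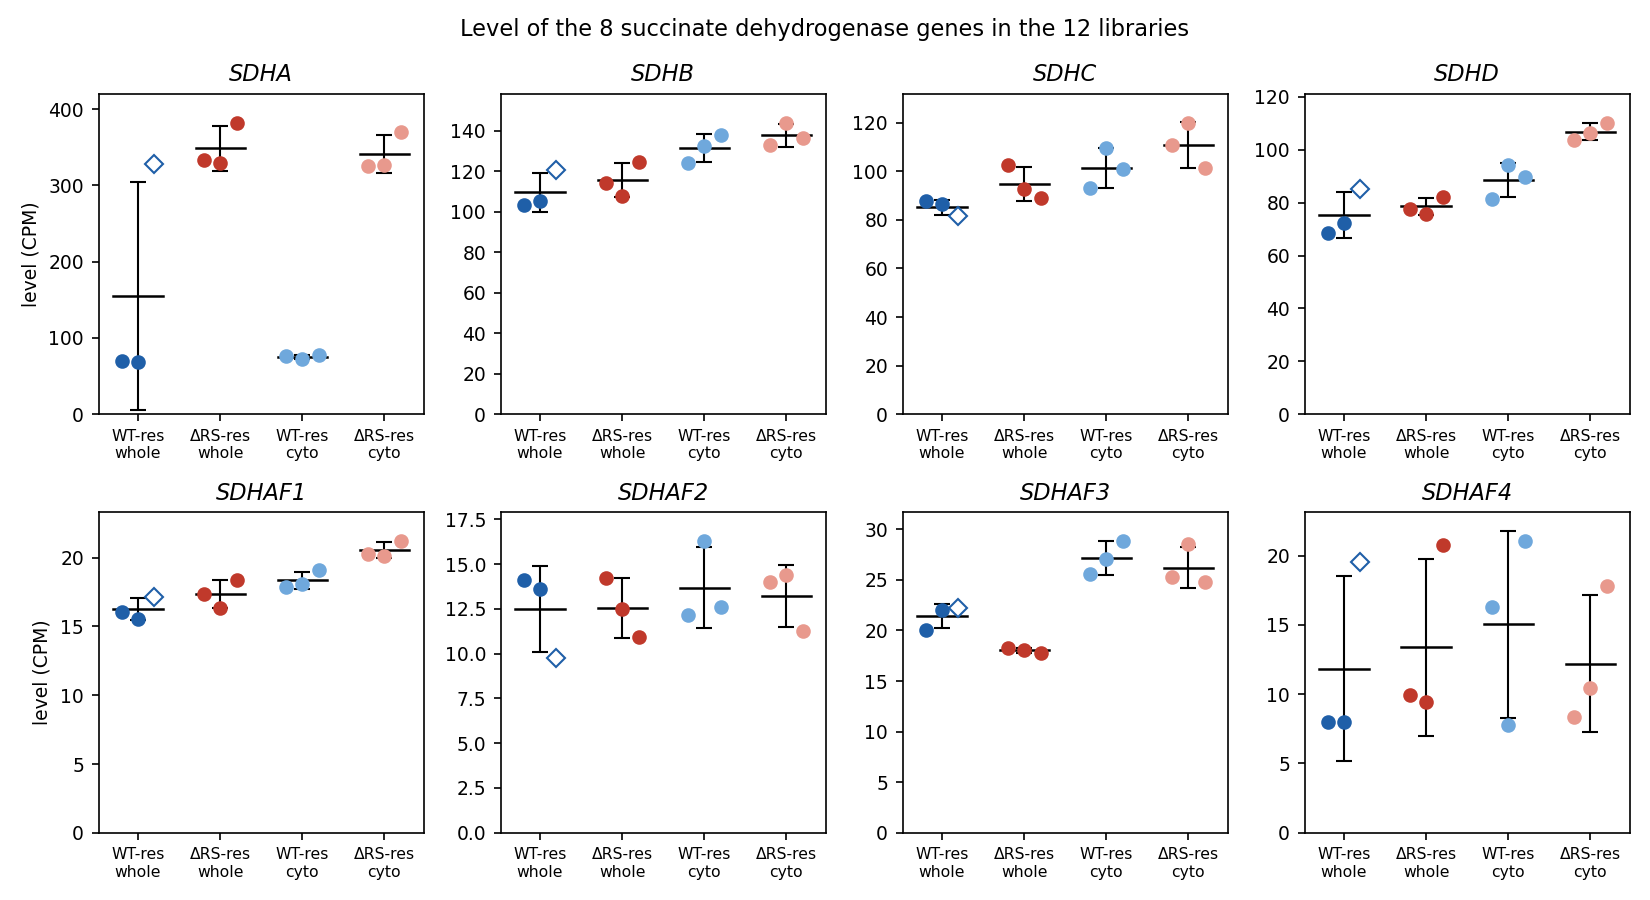
Level of each of the 8 genes in CPM (vertical axes, from 0, on a scale of their own for each gene) in the 12 libraries, by line and fraction. Points are libraries in replicate order, the open diamond is the whole-cell library labelled WT-res 3, and bars give the mean ± SD of 3. SDHA alone shows groups that lie several-fold apart, and SDHAF4 spreads widely inside every group.

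By edgeR's quasi-likelihood test on gene sums, SDHA was higher in ΔRS-res cytoplasm by 2.19 ± 0.08 on the log2 scale (SE, n = 3 and 3, adjusted p = 1.9e-05 after Benjamini-Hochberg adjustment), which is 4.56-fold. It was the 1 member of 8 called there, where 1.53% of the 25949 genes tested were called. With only the 4 cytoplasmic libraries that entered the tests of the study (1 and 3 of WT-res, 1 and 2 of ΔRS-res), the difference was 2.11 ± 0.04. In whole cells with all 6 libraries it was 1.16 ± 0.58 and did not pass (adjusted p = 0.472). No member was called there at an adjusted p under 0.05, nor was any of 26793 genes (0%), while at an unadjusted p under 0.05 edgeR passed 3360 genes, SDHAF3 being the 1 member, and DESeq2 called 1064 genes and no member after adjustment. With the replicate number as a block, 7.97% of genes were called and again no member, SDHA being at 1.59 ± 0.41 (adjusted p = 0.0691). Without the whole-cell library labelled WT-res 3, the whole-cell difference in SDHA was 2.32 ± 0.09 (adjusted p = 8.0e-05), which is 4.98-fold, and again it was the 1 member called, against 2.06% of 26762 genes.

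The second catalytic subunit did not follow SDHA. SDHB, which carries the iron-sulfur clusters, stood at 103, 105 and 121 CPM in WT-res and at 114, 108 and 125 CPM in ΔRS-res whole cells, ranges that overlap. In cytoplasm it stood at 124, 133 and 138 CPM against 133, 144 and 136 CPM. Its log2 difference between the lines in whole cells was 0.07 ± 0.09 with 6 libraries and 0.13 ± 0.08 without the whole-cell library labelled WT-res 3. In cytoplasm with 6 libraries it was 0.07 ± 0.07, and none of these passed. Levels per transcript length (TPM) put the catalytic subunits side by side. The TPM of SDHA was 0.328 and 0.307 of that of SDHB in 2 WT-res whole-cell libraries, 1.33 in the whole-cell library labelled WT-res 3, and from 1.43 to 1.49 in ΔRS-res whole cells. In cytoplasm this ratio ran from 0.26 to 0.291 in WT-res and from 1.1 to 1.28 in ΔRS-res, so the order of the catalytic subunits was opposite in the lines.

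The membrane anchors differed little. SDHC stood at 87.6, 86.3 and 81.4 CPM in WT-res and at 103, 92.5 and 89.0 CPM in ΔRS-res whole cells, with no overlap. The share of all genes whose groups do not overlap was not counted, here or for the members below. The log2 difference of SDHC was 0.14 ± 0.08 in whole cells and 0.14 ± 0.09 in cytoplasm with 6 libraries, and neither passed (edgeR, adjusted p = 0.535 and 0.710). Without the whole-cell library labelled WT-res 3 its whole-cell difference was 0.10 ± 0.08 and did not pass. SDHD stood at 81.5, 94.1 and 89.7 CPM in WT-res and at 104, 106.5 and 110 CPM in ΔRS-res cytoplasm, again with no overlap, whereas its whole-cell ranges, from 68.6 to 85.3 CPM and from 75.9 to 82.3 CPM, overlapped. The cytoplasmic difference in SDHD was 0.28 ± 0.08 with 6 libraries and missed the threshold (edgeR, adjusted p = 0.197). In whole cells the SDHD difference was 0.05 ± 0.09, and 0.14 ± 0.07 without the whole-cell library labelled WT-res 3, and neither passed.

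Of the assembly factors, SDHAF1, an LYR-motif protein needed for the iron-sulfur clusters of SDHB, stood at 17.9, 18.1 and 19.1 CPM in WT-res and at 20.3, 20.1 and 21.2 CPM in ΔRS-res cytoplasm. These groups did not overlap, and the difference of 0.17 ± 0.08 did not pass (edgeR, adjusted p = 0.522). In whole cells the SDHAF1 difference was 0.09 ± 0.09, and 0.12 ± 0.09 without the whole-cell library labelled WT-res 3, and neither passed. SDHAF2, which promotes attachment of FAD to SDHA, ranged from 9.76 to 14.1 CPM in WT-res and from 10.9 to 14.2 CPM in ΔRS-res whole cells. Its whole-cell difference was -0.01 ± 0.17, and -0.16 ± 0.13 without the whole-cell library labelled WT-res 3, and neither passed. SDHAF3, which acts on SDHB alongside SDHAF1, had lower values in ΔRS-res whole cells, at 18.3, 18.0 and 17.8 CPM against 20.1, 22.0 and 22.2 CPM. The groups did not overlap, and the difference of -0.26 ± 0.08 failed the correction (edgeR, unadjusted p = 0.0146, adjusted p = 0.258). Without the whole-cell library labelled WT-res 3 the SDHAF3 difference was -0.24 ± 0.08 and did not pass either, while in cytoplasm it was -0.04 ± 0.09.

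SDHAF4, which binds flavinylated SDHA before SDHB joins it, varied with the replicate number rather than with the line. Its levels in the libraries numbered 3 were 19.5 and 20.8 CPM in whole cells and 21.0 and 17.8 CPM in cytoplasm, the whole-cell library labelled WT-res 3 among them. WT-res cytoplasmic replicate 1 stood at 16.3 CPM, and the remaining libraries lay between 7.74 and 10.4 CPM. Replicates came from consecutive passages, but the labels do not say that a number stands for the same passage in both lines. A part of the passage in this spread was not tested. SDHAF4 had the widest spread relative to its mean of the 7 members other than SDHA in each group, for example 12.2 ± 4.95 CPM (SD, n = 3) in ΔRS-res cytoplasm. Its log2 difference between the lines in whole cells was 0.17 ± 0.43, and 0.73 ± 0.34 without the whole-cell library labelled WT-res 3, and neither passed.

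**Figure D2:**
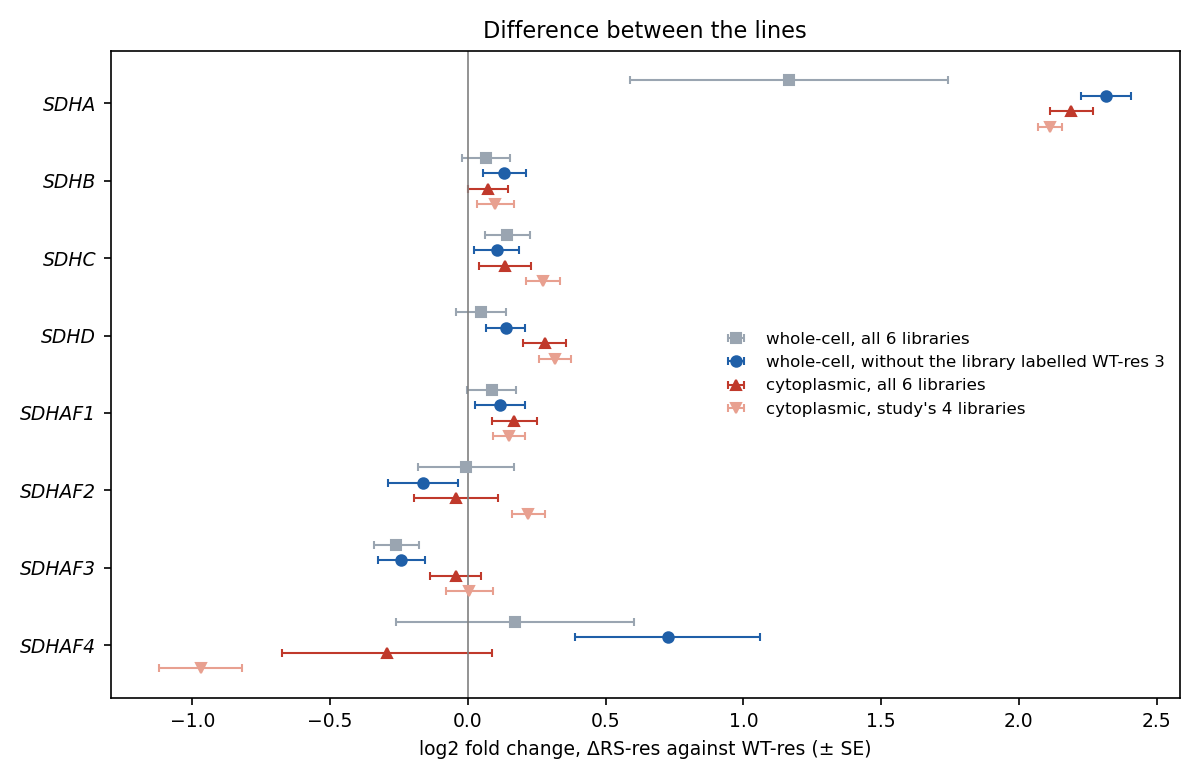
Log2 fold change of each of the 8 genes, ΔRS-res against WT-res, with its SE (horizontal axis), in whole cells with 6 libraries, in whole cells without the whole-cell library labelled WT-res 3, in all 6 cytoplasmic libraries and in the 4 that the study used. SDHA lies between 2.11 and 2.32 wherever that library is absent, the other subunits lie between 0.05 and 0.32, and SDHAF4 changes side between the fits.

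In the 4 cytoplasmic libraries that the study used, 5 of the 8 members were called, in a fit that called 22.1% of 25814 genes. Besides SDHA these were SDHD (0.32 ± 0.06, adjusted p = 0.0126), SDHC (0.27 ± 0.06, adjusted p = 0.0262), SDHAF2 (0.22 ± 0.06, adjusted p = 0.0485) and SDHAF4 (-0.97 ± 0.15, adjusted p = 0.00773). The median over the members was 0.18, beside 0.01 over all genes tested. The libraries left out carry values on the other side for both assembly factors. SDHAF4 stood at 16.3 and 21.0 CPM in the WT-res libraries used and at 8.38 and 10.4 CPM in the ΔRS-res ones, while the unused WT-res replicate 2 was at 7.74 CPM and the unused ΔRS-res replicate 3 at 17.8 CPM. SDHAF2 stood at 12.2 and 12.6 CPM against 14.0 and 14.4 CPM, with 16.3 and 11.2 CPM in those unused libraries. With all 6 libraries the differences were -0.29 ± 0.38 for SDHAF4 and -0.04 ± 0.15 for SDHAF2, and neither passed.

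Ordered by TPM, SDHA led in ΔRS-res cytoplasm at 241 ± 23.3 TPM (SD, n = 3), followed by SDHB at 202 ± 6.78, SDHC at 131 ± 5.56 and SDHD at 118 ± 7.56 TPM, the last pair overlapping. In WT-res cytoplasm the order was SDHB (183 ± 10.2), SDHC (114 ± 9.9), SDHD (92.4 ± 7.29) and then SDHA (49.6 ± 0.997 TPM), with no overlap between neighbours. The assembly factors came last in both lines, from SDHAF3 at 42.9 ± 2.17 TPM in ΔRS-res and 42.0 ± 2.56 TPM in WT-res down to SDHAF2 and SDHAF4, which overlapped each other in all 4 groups.

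The fractions ask whether the RNA of a gene is enriched in cytoplasm. The ΔRS-res fit called 41.1% of 26589 genes in either direction, 4523 of them as higher in cytoplasm. In that fit 4 of the 8 members were higher in cytoplasm than in whole cells, relative to all RNA. They were SDHAF3 (0.54 ± 0.08 on the log2 scale, adjusted p = 0.00119), SDHD (0.45 ± 0.06, adjusted p = 8.5e-04), SDHB (0.26 ± 0.07, adjusted p = 0.0217) and SDHAF1 (0.25 ± 0.08, adjusted p = 0.0374). With the replicate number as a block, SDHC was called as well (0.23 ± 0.06, adjusted p = 0.00784), beside 56.5% of genes, 7000 of them higher. SDHA gave -0.03 ± 0.09 in ΔRS-res.

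In WT-res, SDHAF3 alone was called (0.34 ± 0.10, adjusted p = 0.0304), where 34.4% of 26585 genes were, 3188 of them as higher. With the replicate number as a block, SDHB was called as well (0.26 ± 0.09, adjusted p = 0.0434), beside 38.7% of genes, 4093 of them higher. Without the whole-cell library labelled WT-res 3 the calls were SDHAF3 (0.34), SDHB (0.31) and SDHD (0.30), against 36.6% of genes, 3674 of them higher. The SDHA value in WT-res was -1.04 ± 0.55 with that library and 0.09 ± 0.08 without it. Whether the difference between the lines was unequal in the fractions was tested by an interaction term over all 12 libraries, which called no member and 1 of 26686 genes (0.00375%). No member passed at an unadjusted p under 0.05 either, and DESeq2 called no member and 3 genes. The interaction for SDHA was 1.02 ± 0.65 with all libraries and -0.15 ± 0.11 without the whole-cell library labelled WT-res 3.

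**Figure D3:**
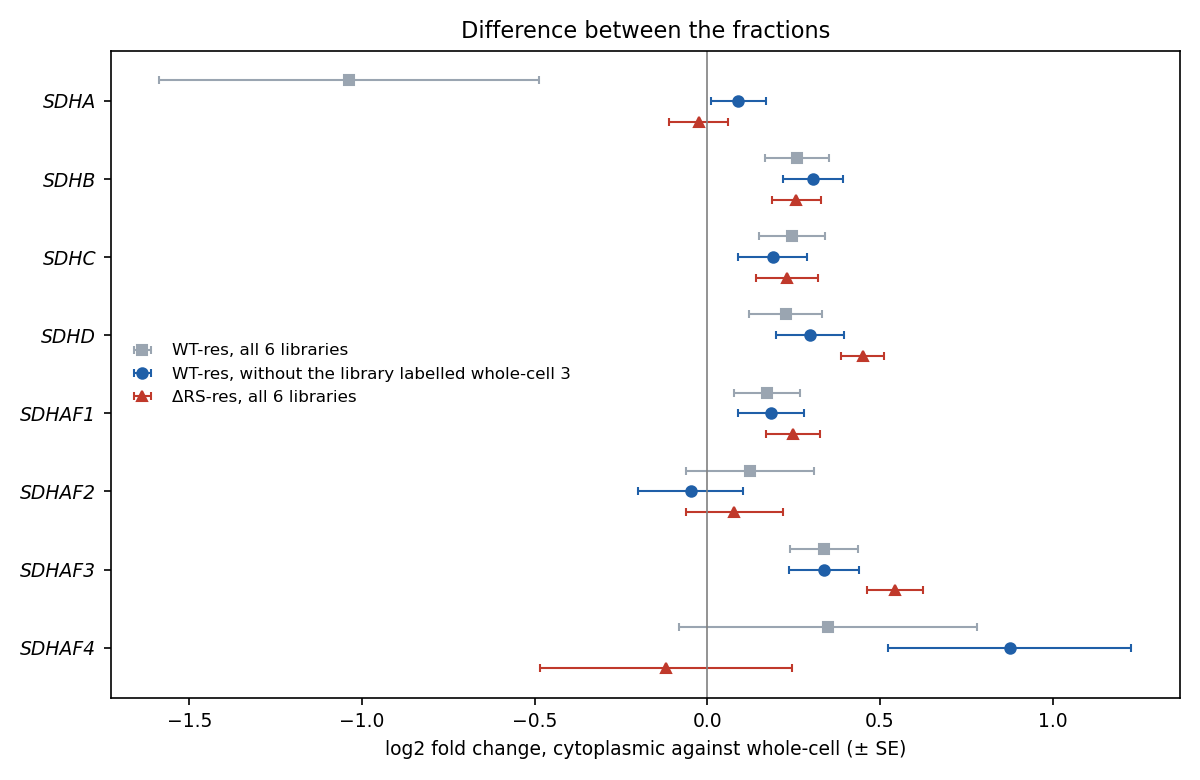
Log2 fold change of each of the 8 genes, cytoplasmic against whole-cell RNA, with its SE (horizontal axis), in WT-res with 6 libraries, in WT-res without the whole-cell library labelled WT-res 3, and in ΔRS-res. SDHB, SDHC, SDHD, SDHAF1 and SDHAF3 lie above 0 in every fit, and the SDHA value in WT-res moves from -1.04 to 0.09 once that library is left out.

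The transcripts of SDHA rose together. Of 19 annotated in the counts, 16 had a mean count above 2 and were tested, and 15 of them were called higher in ΔRS-res cytoplasm with 6 libraries at the study's threshold (unadjusted p under 0.05 and a log2 change above 0.5), which 4.06% of 124558 transcripts passed. These 15 were all of the transcripts of the 8 genes that were called, out of 53 tested. In the 4 libraries that the study used, 11 of the 16 passed, among 13 member transcripts called, where 8.78% of 122729 transcripts did. In whole cells none of the 16 passed with 6 libraries, where 1 member transcript and 5.25% of 129700 transcripts did, and with the replicate number as a block 9 member transcripts passed, beside 5.66% of all. Without the whole-cell library labelled WT-res 3, all 16 passed among 18 member transcripts, against 6.28% of 129002. After adjustment 3 SDHA transcripts held in the 6 cytoplasmic libraries and 2 in whole cells without that library.

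The main SDHA transcript was ENST00000264932 (the MANE Select form, 2693 bases of exon). It took 80.2% of the gene's counts on average and from 78.0% to 84.2% in the single libraries. In whole cells its share ran from 78.5% to 80.2% in WT-res and from 78.0% to 78.1% in ΔRS-res. In cytoplasm the share ran from 80.5% to 84.2% in WT-res and from 80.0% to 81.9% in ΔRS-res. The transcript lay between 59.3 and 65.0 CPM in WT-res and between 260 and 303 CPM in ΔRS-res cytoplasm, a log2 difference of 2.18. Of the minor forms, the annotated retained-intron transcript ENST00000511810 (1.30% of the counts) differed by 2.001 and the nonsense-mediated decay form ENST00000509632 (0.117%) by 1.90. Among the other 7 genes, the MANE Select form held from 85.5% (SDHAF2) to 100% (SDHAF1) of the counts.

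Other transcripts called were few, and RSEM divides shared reads among them. In whole cells the nonsense-mediated decay form of SDHAF2, ENST00000359614, with 0.951% of the gene's counts, was lower in ΔRS-res by 2.54 on the log2 scale, and without the whole-cell library labelled WT-res 3 a minor SDHC form, ENST00000513009, was higher by 0.82. In the 4 cytoplasmic libraries used by the study, ENST00000370474 of SDHAF4 changed by -1.01 and ENST00000479853 of SDHAF3 by 0.72. None of these 4 held an adjusted p under 0.05 in those fits. The 10 retained-intron transcripts of SDHA held from 5.55% to 7.61% of its counts in whole cells and from 2.32% to 3.84% in cytoplasm, with no overlap between the fractions. The 3 of SDHB held from 2.84% to 3.35% and from 1.57% to 2.14%. Within a fraction these shares overlapped between the lines for SDHB and, in cytoplasm, for SDHA, whereas in whole cells the mean SDHA share was 7.31% ± 0.505 (SD, n = 3) in WT-res against 6.12% ± 0.496 in ΔRS-res, with no overlap. Without the whole-cell library labelled WT-res 3 the WT-res share was 7.60% ± 0.0195 (SD, n = 2). How many of all genes have retained-intron shares that do not overlap, between fractions or lines, was not counted.

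Reads of SDHA can also be assigned to its pseudogenes, of which 4 are unprocessed copies that are transcribed. SDHAP3, on chromosome 5 (1572222 to 1593289), lay at 3.02, 3.16 and 2.66 CPM in WT-res and at 12.1, 12.9 and 10.3 CPM in ΔRS-res cytoplasm, a log2 difference of 2.005 ± 0.13 (adjusted p = 4.9e-04). The copies on chromosome 3 gave 0.09 ± 0.12 (SDHAP1), 0.51 ± 0.26 (SDHAP2) and 0.00 ± 0.09 (SDHAP4), and none passed. The 11 processed pseudogenes of the subunits did not exceed 20.0 counts in a library. The gene ENSG00000286001, annotated across SDHA and its neighbour PDCD6, held at most 0.468% as many counts as SDHA.

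SDHA lies at the end of the short arm of chromosome 5 (GRCh38, 218303 to 257082, plus strand). SDHB is on chromosome 1 (17018664 to 17054032) and SDHC is on the same chromosome (161314381 to 161363206). SDHD is on chromosome 11 (112086824 to 112120016), as is SDHAF2 (61430042 to 61446733). SDHAF1 is on chromosome 19 (35995188 to 35996312), SDHAF3 on 7 (97117698 to 97181763) and SDHAF4 on 6 (70566917 to 70589569). Each member was set beside the protein-coding genes whose midpoints lie within 1 Mb of its own with a mean count of 100 or more.

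All 15 neighbours of SDHA had higher values in ΔRS-res. Their median log2 difference was 2.05 in cytoplasm with 6 libraries, from 1.70 to 2.34, beside 2.19 for SDHA itself. In whole cells without the whole-cell library labelled WT-res 3 the median was 2.07, from 1.33 to 2.46, and with it 1.08. In order of position, and in cytoplasm, the values were 1.85 for PLEKHG4B, 2.07 for CCDC127, 2.17 for PDCD6, 2.03 for the read-through gene PDCD6-AHRR, 2.17 for AHRR and 2.09 for EXOC3. Further in they were 2.34 for SLC9A3, 1.83 for CEP72, 1.92 for TPPP, 2.29 for ZDHHC11B, 1.70 for ZDHHC11, 2.03 for BRD9, 2.05 for TRIP13, 1.77 for NKD2 and 2.10 for SLC12A7. Of these 15, PDCD6-AHRR, which shares exons with PDCD6 and AHRR, did not pass in cytoplasm (adjusted p = 0.502). Within 2 Mb the count was 20 genes and the lowest value 0.32.

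**Figure D4:**
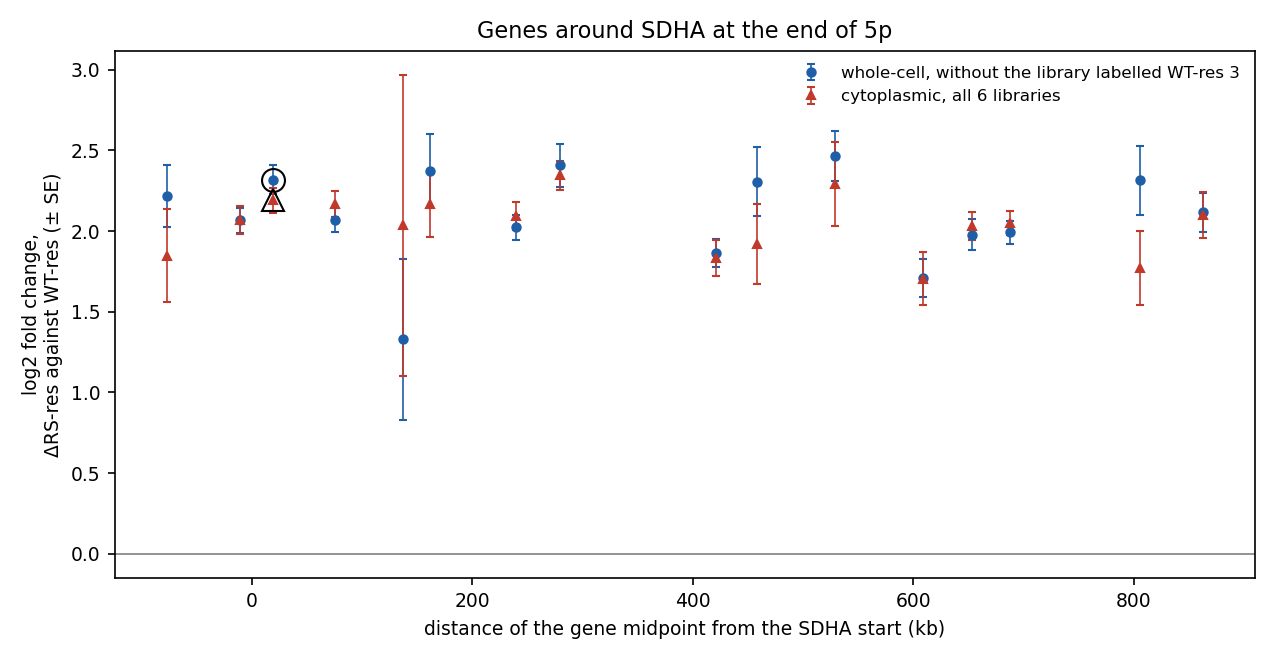
Log2 fold change, ΔRS-res against WT-res, with its SE (vertical axis) for protein-coding genes within 1 Mb of SDHA, by the distance of their midpoint from the SDHA start in kb (horizontal axis). Circles are whole cells without the whole-cell library labelled WT-res 3, triangles are the 6 cytoplasmic libraries, and the outlined points are SDHA. All genes lie above 1.3, and SDHA lies inside the range of its neighbours.

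In whole cells with 6 libraries all 15 neighbours of SDHB were higher in ΔRS-res as well, by a median of 0.20. Without the whole-cell library labelled WT-res 3 these ran from -0.12 to 1.35, with 12 above 0. The neighbours of the other members had smaller median differences than those of SDHA. Their medians in cytoplasm with 6 libraries were 0.16 for the 15 around SDHB, 0.01 for the 19 around SDHC, 0.00 for the 13 around SDHD, -0.01 for the 41 around SDHAF1, -0.03 for the 25 around SDHAF2, 0.06 for the 6 around SDHAF3 and 0.01 for the 6 around SDHAF4. The 5 genes whose log2 CPM followed SDHA most closely over the 12 libraries, among 14938 genes at that count, were SLC9A3 (Pearson r = 0.998), CEP72 (0.998), EXOC3 (0.995), PP7080 (0.994) and PDCD6 (0.994), all on chromosome 5. PP7080 overlaps SLC9A3 and EXOC3. These correlations describe libraries that fall into 2 levels of SDHA.

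SDHA and CCDC127 start back to back, and the stretch between them is printed. The log2 difference of CCDC127 in cytoplasm was 2.07, and the 15 neighbours of SDHA ran from 1.70 to 2.34. A part of the promoter in these differences was not tested. Between the RefSeq start sites of SDHA and CCDC127 lie 166 bases (GRCh38.p14, chr5:218154-218319, plus strand, reading toward SDHA). The 250 bases before the start of SDHB, whose difference did not pass, is given for comparison (chr1:17054033-17054282, minus strand). Capitals in SDHA mark the octamer GCGCAGGC, noticed on reading the sequence, and in SDHB the motif letters AAGGTCA (the core bound by oestrogen-related receptors, partners of PGC-1α), GCATGCGC (NRF1) and CCGGAAG (ETS factors such as GABP).
SDHA: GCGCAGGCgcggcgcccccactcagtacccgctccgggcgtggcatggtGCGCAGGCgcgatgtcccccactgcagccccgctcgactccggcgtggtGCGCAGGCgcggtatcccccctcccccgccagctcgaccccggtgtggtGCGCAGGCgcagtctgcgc
SDHB: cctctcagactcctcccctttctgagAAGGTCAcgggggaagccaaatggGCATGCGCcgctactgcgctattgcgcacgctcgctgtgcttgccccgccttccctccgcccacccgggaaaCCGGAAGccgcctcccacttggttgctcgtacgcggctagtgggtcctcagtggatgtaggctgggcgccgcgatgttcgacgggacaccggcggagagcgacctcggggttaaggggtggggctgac

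The octamer stands in SDHA 4 times, at steps of exactly 49 bases. At least 1 copy stands in 6.11% of the 35116 RefSeq promoter windows (250 bases before to 50 after a start, either strand). The octamer was picked from the SDHA sequence itself, so this share is no test of it, and windows with 4 copies were not counted. The other motifs searched on both strands were GCATGCGC, held by 3.05% of windows, CCGGAAG (10.3%), AAGATGGC, a core of YY1 (2.89%), and AAGGTCA (3.92%). The window of SDHA held none of these 4, that of SDHB held each of them once, with the YY1 core after the start, and that of SDHD held GCATGCGC at 2 overlapping positions of a palindrome, CCGGAAG once and AAGGTCA once. SDHAF2 held GCATGCGC once and CCGGAAG 4 times, SDHAF3 held CCGGAAG once, and SDHAF1 and SDHAF4 held none of the 4. The octamer also stood in the windows of SDHAF3, at 2 positions, and SDHAF4, at 1. RefSeq windows were at hand for 7 of the 8 members, without SDHC.

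The partners of complex II were read from 5 lists with 48 genes: TCA cycle enzymes, iron-sulfur cluster assembly, FAD supply, ubiquinone synthesis and other enzymes that reduce ubiquinone. In cytoplasm with 6 libraries none of the 48 passed edgeR's adjusted threshold, 14 (29.2%) had an unadjusted p under 0.05, beside 10.8% of all genes, and DESeq2 called 7 (14.6%), beside 3.6% of all genes. In whole cells with 6 libraries none passed either, 3 (6.25%) had an unadjusted p under 0.05, beside 12.5% of all genes, and DESeq2 called 1 (2.08%), beside 3.97%. Without the whole-cell library labelled WT-res 3, OGDH, a subunit of the 2-oxoglutarate dehydrogenase complex, was higher in ΔRS-res whole cells by 0.54 ± 0.10 (edgeR, adjusted p = 0.0409). It was the 1 gene of the 48 called, beside 2.06% of all 26762 genes, so the list did not stand out from all genes there.

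In the 4 cytoplasmic libraries that the study used, where 22.1% of genes were called, 6 of 13 TCA cycle enzymes were higher and 1 was lower. DLD (0.40) and IDH3A (0.36) were among the higher, and SUCLG2 (-0.33), a subunit of succinyl-CoA ligase, was the lower. Of 15 iron-sulfur assembly genes, 7 were higher and none was lower, BOLA3 (0.43), FDX2 (0.35), FDXR (0.29) and NDUFAB1 (0.28) by most. Of 3 FAD supply genes RFK (0.25), riboflavin kinase, was higher, and of 11 ubiquinone synthesis genes PDSS1 (0.35), which builds the isoprenoid tail. Of 6 other ubiquinone-reducing enzymes ETFDH (0.34) and CHDH (0.32) were higher and SQOR (-0.59), a sulfide oxidase, was lower. With all 6 cytoplasmic libraries the list medians were 0.20, 0.11, -0.02, 0.09 and 0.01 in that order of lists, beside 0.00 over all genes.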

How the data were processed

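Transcripts were quantified by the authors with the nf-core/rnaseq pipeline (Trim Galore, STAR, RSEM) on GRCh38 with Ensembl release 107; versions of the tools are not given in the sources used here. The deposited table gives expected counts for each transcript without scaling, of which 43.3% to 47.0% per library were not whole. Counts were summed per gene and rounded. Genes or transcripts with a mean count above 2 in the libraries of a fit were tested with edgeR 4.0.16 (TMM, quasi-likelihood test, Benjamini-Hochberg adjustment) in R 4.3.3; genes were called at an adjusted p under 0.05. DESeq2 1.42.0, its size factors, other filters, a replicate block and removal of each library were alternatives; the block or DESeq2 without the whole-cell library labelled WT-res 3 were chosen after seeing the data. Tests were tried on simulated data. Printed CPM share TMM factors over all 12 libraries. TPM used exonic lengths from GENCODE 44, which holds 99.8% of the genes and 99.7% of the transcripts.

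The members and all lists were chosen with earlier results of these data known. Named were all members, their transcripts with at least 10% of a gene's counts or called, subunit pseudogenes, up to 4 called genes per partner list, neighbours within 1 Mb, the 5 genes most like SDHA, and PPARGC1A and DDX19B as label checks; genes and transcripts beyond this were chosen after their values were seen. Same-numbered whole-cell libraries of the lines deviated together (correlations 0.545, 0.55 and 0.683 over 14938 genes), as did the fractions of ΔRS-res (0.518, 0.466 and 0.797). In both lines the fractions of a number share a cell pellet in the study's sample sheet, although those of WT-res gave -0.167, 0.588 and 0.473. The block was read in these comparisons. No pair of replicates was a copy (chi-square per gene of at least 15.8).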

Additional observations from a re-analysis of the deposited data

How the results depend on the processing

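SDHA in cytoplasm kept its direction and its call under all alternatives run. In whole cells its log2 difference passed only without the whole-cell library labelled WT-res 3, at 2.32 by edgeR, 2.32 by DESeq2's Wald test and 2.25 with the replicate block, and ranged from 0.79 to 2.32 as single libraries were left out. With 6 whole-cell libraries and the block it was 1.59 by edgeR (adjusted p = 0.0691). Numbers of members called were 0 with the block and 0 to 1 over the single removals, beside 0 to 602 genes. The added fits without the whole-cell library labelled WT-res 3 called 1 member each, beside 4444 of 26762 genes with the block and 2435 with DESeq2. The block called 2 members between the fractions of WT-res, and over all genes it moved the whole-cell count from 0 to 2136. Without the whole-cell library labelled WT-res 3 it moved that count from 552 to 4444. Other counts of members or genes called between the lines or fractions stayed within 1.5 times under the block. The cytoplasmic lines did not pair in the data (correlation -0.419 for number 1).

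In the study's 4 cytoplasmic libraries 2 members passed the study's threshold and 2 to 5 were called over the removals, which leave a lone library assumed to vary like the others; SDHC and SDHD were lost without ΔRS-res replicate 1 or 2, and SDHAF2 also without WT-res replicate 1, with DESeq2, with its size factors and with no filter. The study's threshold passed 3374 of 25814 genes in those 4 libraries. Between the fractions, WT-res gave 4 members with DESeq2's test, beside 10334 of 26585 genes. It gave 2 with its size factors, beside 9991, and 0 without a filter, beside 8733 of 39257. Over the removals WT-res gave 0 to 3 (0 without whole-cell 1 or 2 or cytoplasmic 2 or 3), beside 5116 to 9670 genes. ΔRS-res gave 2 to 4 (2 without whole-cell 1 or 2 or cytoplasmic 2), beside 8469 to 11359 genes. Member transcripts called in whole cells numbered 4 with DESeq2, beside 7093 of 129700 transcripts, and 9 with the block, beside 7345. They numbered 0 at an adjusted p and 1 to 18 over the removals, beside 4924 to 8107 transcripts. In 6 cytoplasmic libraries 3 passed at an adjusted p, beside 30 of 124558 transcripts. Over the removals 11 to 17 passed the study's threshold there, beside 4255 to 5898. In the 4 libraries 0 passed at an adjusted p. Sign changes touched uncalled values alone: SDHAF2 in whole cells (0.00599 with DESeq2 or its size factors, 0.00233 with no filter, 0.00448 with the block, -0.16 to 0.0883 over the removals), SDHD (-0.0239 to 0.14) and SDHAF4 (-0.29 to 0.73) there, SDHAF2 (-0.13 to 0.11), SDHAF3 (-0.12 to 0.00490) and SDHAF4 (-0.66 to 0.0379) in 6 cytoplasmic libraries, and SDHAF3 in 4 (-8.4e-04 with DESeq2 or its size factors, -0.0256 with no filter, -0.10 to 0.10). Causes were not tested.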
